A study of Mus musculus with 7 samples.

Results

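The 40 genes described here are those of the cell cycle module: 15 of DNA replication in S phase, 20 of mitosis, 4 that are high in both (Hmgb2, Stmn1, Cks1b, Cks2) and Ccnd1, the cyclin of the G1 phase. They were picked by name from 33710 genes in the deposited matrices. All 40 were detected, with 26853 unique molecular identifiers (UMIs, 1 per captured transcript) between them, or 0.169% of all UMIs. Of these, 37 had at least 100 UMIs, and Cdc6 with 60, Bub1b with 87 and Ccne2 with 87 did not.

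The samples were 7 mammary tumors, 1 from each of 7 mice, each turned into its own Drop-seq library, in which single cells are caught in droplets with barcoded beads. All 7 mice carried MMTV-PyMT, a transgene whose promoter drives the polyoma middle T oncogene in mammary epithelium, together with HK2 f/f, floxed alleles of hexokinase 2. The labels give all as wild type, taken 3 months after a tumor could be felt. According to the methods, the controls bore no Cre and were given tamoxifen, and the digested tumors were freed of red cells. No other group was analysed here, so every comparison is between cell classes within these tumors.

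A dividing cell passes from G1, where D-type cyclins with Cdk4 or Cdk6 phosphorylate the retinoblastoma protein, into S phase, where E2F factors drive the genes of DNA replication. The genes of mitosis follow, under a complex that binds the cell cycle homology region (CHR) of their promoters, and their RNA peaks in G2 and M. In a tumor the dividing cells need not be the malignant ones, since lymphocytes that meet antigen and macrophages can divide in the tissue too.

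Of 37000 barcodes, 15047 had 200 to 6000 genes and were kept as cells, between 1133 and 4780 a mouse. Median UMIs per cell lay between 527 and 694 a mouse. Pairs of libraries shared at most 1 kept barcode. Clustering left out the members and the other S, G2/M and G1 genes read beside them, 6 of 587 variable genes. It gave 15 clusters, each named from fixed markers. Cell cycle genes outside these lists were not left out. With at least 500 genes a cell, 1 tumor-like cluster (232 cells) had Cenph and Cdkn3, which are such genes, among its leading genes. The members Cdc20, Rrm2, Nusap1 and Ube2c were among them too. Its score for tumor markers was 1.71, against 2.69 and 3.02 in the other tumor-like clusters. So the clusters of that alternative were not independent of the cell cycle. The 7 classes compared were tumor-like (6160 cells), hormone-sensing-like (1710, the luminal lineage with Prlr and Esr1), myoepithelial-like (263, in 5 mice with at least 10), fibroblast-like (1030), endothelial-like (141, in 3 mice with at least 10), macrophage-like (1916) and T/NK-like (2206). Markers of tumor cells, 9 genes with PYMT among them, summed to 40695 to 72928 CPM (counts scaled to the total UMIs of a mouse and class) in tumor-like cells, 3104 to 13935 in hormone-sensing-like, 11535 to 52545 in myoepithelial-like, 609 to 7588 in fibroblast-like, 2323 to 4493 in endothelial-like, 954 to 8078 in macrophage-like and 885 to 9449 in T/NK-like cells. None of the 9 was at 0 in hormone-sensing-like or myoepithelial-like cells, and the count of members called without cells that held tumor RNA is given beside each comparison of classes. A cell was taken to hold tumor RNA with a UMI of PYMT or with UMIs of more than 1 of the 9. In hormone-sensing-like and myoepithelial-like cells, which are epithelium too, this cannot tell a cell's own RNA from that of tumor cells. Deeper cells meet this rule more easily.

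Promoters of the members are shown first, because the S and mitotic lists differ in sequence as well as in timing. RefSeq windows of GRCm38.p6, from 250 bases before to 50 after the start site, were found for 33 of the 40 members (34 windows). The CHR letters TTTGAA stood, on either strand, in 12 of 17 mitotic windows (70.6%) and in 1 of 14 S windows (7.14%), against 17.9% of all 32851 windows. CCAAT, the letters bound by NF-Y, stood in 15 of 17 mitotic windows (88.2%), in 9 of 14 S windows (64.3%) and in 37.4% of all. The E2F-type letters TTCCCGC stood in 5 of 14 S windows (35.7%) against 4.6% of all, and TTTGGCG in 3 of 14 (21.4%) against 1.56%, and neither was found in the 17 mitotic windows. Matches of different motifs did not overlap in the members. A match is a description of the letters, not evidence of binding.

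The 250 bases before the start of Top2a (chr11:99024190-99024439, minus strand), the topoisomerase that untangles sister chromatids, show both mitotic motifs, with TTTGAA and CCAAT on either strand in capitals:
Top2a: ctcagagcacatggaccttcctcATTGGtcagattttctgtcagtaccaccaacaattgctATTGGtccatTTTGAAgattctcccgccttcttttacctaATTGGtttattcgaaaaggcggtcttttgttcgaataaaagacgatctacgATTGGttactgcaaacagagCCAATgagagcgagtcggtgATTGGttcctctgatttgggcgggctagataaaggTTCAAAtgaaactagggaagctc

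For 5 other mitotic members, 30 bases around the CHR letters (capitals, either strand) are given to show the shared core in unlike flanks. They are Mki67 at chr7:135716460-135716489, Cdk1 at chr10:69352910-69352939, Cenpa at chr5:30666890-30666919, Cdc20 at chr4:118437344-118437373 and Ube2c at chr2:164769888-164769917.
Mki67: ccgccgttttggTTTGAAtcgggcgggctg
Cdk1: taccgcggcgagTTTGAAactgctggcact
Cenpa: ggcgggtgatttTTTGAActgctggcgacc
Cdc20: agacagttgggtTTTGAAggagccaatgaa
Ube2c: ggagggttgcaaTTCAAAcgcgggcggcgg

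For the S list, 30 bases around the E2F-type letters (capitals) are given for Mcm3 at chr1:20820276-20820305, Mcm5 at chr8:75109349-75109378, Mcm6 at chr1:128359735-128359764 and Rrm1 at chr7:102441616-102441645. The Mcm genes encode the helicase that opens DNA at origins, and Rrm1 the large subunit of the enzyme that makes deoxynucleotides.
Mcm3: taaacttccgtgGCGGGAAaacttgggaag
Mcm5: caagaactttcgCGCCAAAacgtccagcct
Mcm6: tgattggacgggTTTGGCGcgaagtagctc
Rrm1: caggagaactcgTTCCCGCcaggtccgctt

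Which compartment gave the largest share of its RNA to the cell cycle was asked first from the summed lists. These are CPM per mouse and class, levels with no test. In UMIs, tumor-like cells held 3439 of the S list and 3811 of the mitotic list, and T/NK-like cells 1261 and 1108. Median depth was 685 and 419 UMIs a cell. T/NK-like cells had the highest mean CPM of both lists. Their S list lay between 793 and 1603 CPM (median 1110, mean 1135 ± 310, SD, n = 7) against 306 to 582 in tumor-like cells (median 445, mean 457 ± 110, n = 7), so the classes did not overlap and T/NK-like cells were higher in 7 of 7 mice. Their mitotic list lay between 792 and 1614 CPM (median 852, mean 1112 ± 361) against 283 to 802 in tumor-like cells (median 494, mean 481 ± 168). It was higher in 7 of 7 mice, although the lowest T/NK-like value fell just under the highest tumor-like one. That lowest value, of mouse 5, was also below the fibroblast-like (1114 CPM), macrophage-like (845), endothelial-like (819) and myoepithelial-like values (803) of the same mouse. In T/NK-like cells the library of mouse 8 held few cells, and the UMIs per mouse ran from 11773 to 367092. The titles form a CB and a WT series, and the mitotic list of T/NK-like cells was 1141 CPM in the first (n = 4) and 1073 in the second (n = 3), beside 505 and 449.8 in tumor-like cells. The series differed by over 1.5 times in hormone-sensing-like (554 and 883 CPM, with ratios of S to mitotic UMIs of 1.13 and 0.65), fibroblast-like (186 and 472), myoepithelial-like (228 and 609, n = 2 and 3) and endothelial-like cells (325 and 551, n = 1 and 2).

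Fibroblast-like cells stood at the other end. Their S list lay between 58.0 and 328 CPM (median 268, mean 246 ± 89.1, n = 7) and was below that of tumor-like cells in every mouse, or in all but 1 of 7 without cells that held tumor RNA. Their mitotic list lay between 58.0 and 1114 CPM (median 199.9, mean 308 ± 364) and was above tumor-like cells in 1 of 7 mice. That 1 value rests on a single barcode of mouse 5 with 76 mitotic UMIs, 259 UMIs of fibroblast markers and 0 of tumor markers, without which the mouse stood at 238 CPM.

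The other classes lay between these. Hormone-sensing-like cells had 207 to 1258 CPM of the mitotic list (median 722, mean 695 ± 318) and were above tumor-like cells in 6 of 7 mice. Tumor RNA was found in 47.5% of these cells. The 897 of 1710 cells without it held 905784 of 2734128 UMIs and 433 of 1601 mitotic UMIs. So leaving out cells with tumor RNA also left out deeper cells. In the cells without it the mitotic median of hormone-sensing-like cells was 472 CPM against 494 in tumor-like cells, higher in 4 of 7 mice. Without the cell with the most mitotic UMIs in each mouse and class, an alternative added after seeing the data, their mean was 450.1 CPM against 388 in tumor-like cells, also higher in 4 of 7 mice. Their S list was 549 ± 129 CPM, above tumor-like cells in 5 of 7. Macrophage-like cells had 664 ± 227 CPM of the mitotic list (460 to 1045) and 486 ± 63.2 of the S list, each above tumor-like cells in 5 of 7 mice. Myoepithelial-like cells had 456 ± 435 CPM of the mitotic list and 381 ± 139 of the S list (n = 5), and endothelial-like cells 476 ± 298 and 484 ± 180 (n = 3). These last classes rest on 113 and 45 mitotic UMIs. The S list of myoepithelial-like cells was below that of tumor-like cells in 5 of 5 mice, but without cells that held tumor RNA it was above in 2 of the 3 mice left. Their mitotic list was above in 2 of 5 mice, and that of endothelial-like cells in 2 of 3. Without the cell with the most mitotic UMIs these were 1 of 5 (mean 199 against 381 CPM in tumor-like cells of the same mice) and 0 of 3 (167 against 282). Tumor RNA was found in 75.7% of myoepithelial-like cells, whose tumor markers summed to 24073 CPM over all mice and whose own markers to 5047. The 4 myoepithelial-like cells with at least 10 mitotic UMIs had medians of 25 UMIs of tumor markers and 5 of their own. Barcodes with fewer than 200 genes, which were not kept as cells, had 439 ± 130 CPM of the mitotic list and 360 ± 71.9 of the S list. The part of free RNA in the lower class levels was not tested.

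**Figure D1:**
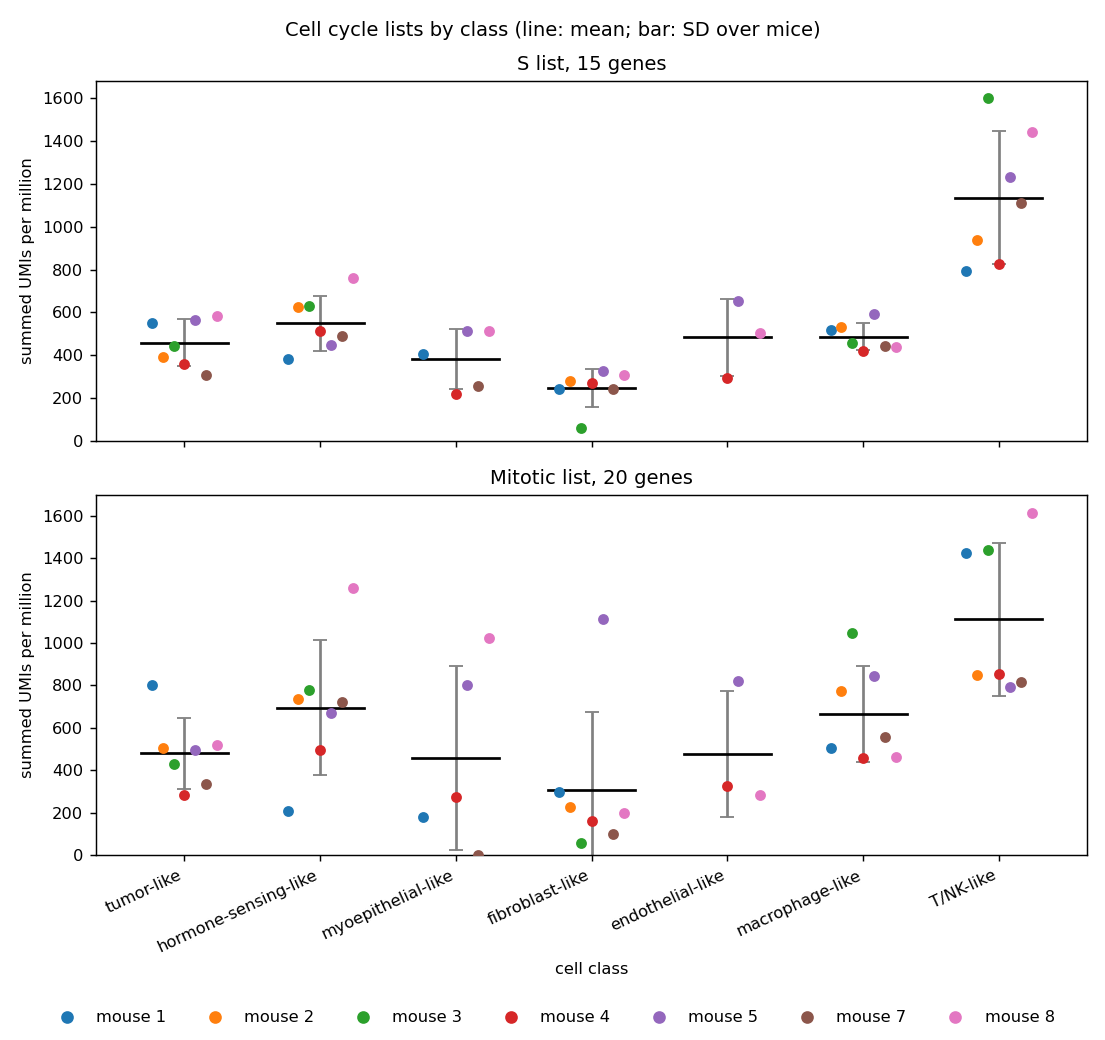
Summed CPM of the S list and the mitotic list in 7 cell classes, 1 point per mouse, with the mean and SD. T/NK-like cells have the highest mean for both lists, with S values of 793 to 1603 CPM against 306 to 582 in tumor-like cells, and 1 fibroblast-like point stands at 1114 CPM for the mitotic list.

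The ratio of S to mitotic UMIs was 0.99 ± 0.21 in tumor-like cells (n = 7), 0.93 ± 0.43 in hormone-sensing-like, 0.79 ± 0.20 in macrophage-like and 1.08 ± 0.32 in T/NK-like cells. It was 1.27 ± 0.67 in fibroblast-like (n = 7), 1.05 ± 0.81 in myoepithelial-like (n = 4) and 1.16 ± 0.54 in endothelial-like cells (n = 3). It was below that of tumor-like cells in 6 of 7 mice for macrophage-like cells and above it in 5 of 7 for fibroblast-like cells. The ranges of all of these classes overlapped. The hormone-sensing-like mean was 2.22 without cells that held tumor RNA, and with cells named by their markers alone the tumor-like mean was 2.05, so no order of the classes is read from it.

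Since cells of the classes differ in depth, each cell was also thinned to 300 UMIs, which left out 645 tumor-like, 427 T/NK-like and 90 fibroblast-like cells that were shallower. A mitotic UMI was then found in 348 of 5515 tumor-like cells, or 6.31% (exact 95% binomial interval 5.68 to 6.98), in 7.76% (6.48 to 9.20) of hormone-sensing-like, 8.31% (7.07 to 9.69) of macrophage-like and 11.5% (10.02 to 13.04) of T/NK-like cells. Of fibroblast-like cells, 23 of 940 had one, or 2.45% (1.56 to 3.65). Over mice, the T/NK-like share was 19.6% ± 14.8 (8.84 to 50, the highest from 14 cells of mouse 8) and was above the tumor-like share in 6 of 7 mice, all but mouse 5. An S UMI was found in 9.01% of tumor-like, 11.9% of hormone-sensing-like, 10.9% of macrophage-like, 19.4% of T/NK-like and 5.85% of fibroblast-like cells. These intervals cover counting error only, and cells of 1 mouse are not independent.

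**Figure D2:**
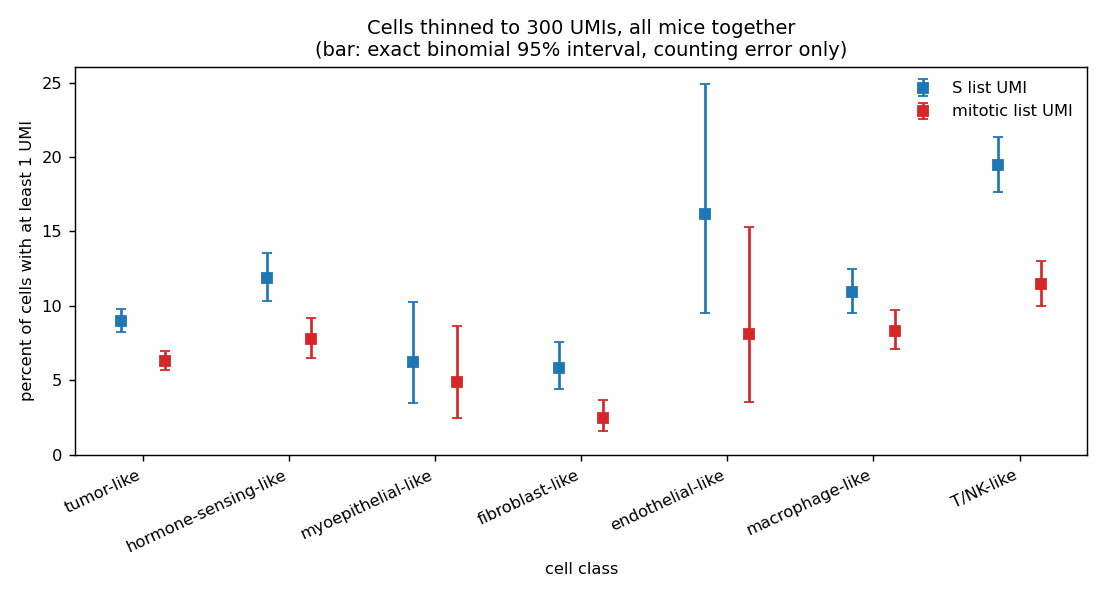
Percent of cells with a UMI of the mitotic list and of the S list after each cell was thinned to 300 UMIs, by class, with exact 95% binomial intervals. T/NK-like cells stand highest for the mitotic list at 11.5% and fibroblast-like cells lowest at 2.45%.

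In most classes S and mitotic UMIs met in the same cells. Among tumor-like cells with an S UMI 21.5% also had a mitotic UMI, against 4.80% of those without. The values were 21.1% and 5.96% in hormone-sensing-like, 18.5% and 7.06% in macrophage-like, 21.1% and 9.14% in T/NK-like, and 3.64% and 2.37% in fibroblast-like cells. Of the 14 myoepithelial-like cells with an S UMI 0 had a mitotic UMI, against 5.24% of those without, and in endothelial-like cells the values were 18.75% of 16 cells and 6.02%. Thinned to 500 UMIs, the values were 21.4% of 14 cells and 7.52% in myoepithelial-like and 12.9% and 3.27% in fibroblast-like cells. At full depth, 94 tumor-like cells (1.53%) had at least 10 mitotic UMIs and held 62.2% of the mitotic UMIs of their class, at a median depth of 4785 UMIs against 685 in the whole class. Such cells held 68.8% in hormone-sensing-like cells (39 cells, 2.28%), 52.9% in fibroblast-like (6 cells, 0.58%), 36.4% in macrophage-like (17 cells, 0.89%) and 45.8% in T/NK-like cells (31 cells, 1.41%). In the same order their median depths were 3092, 4587, 2479 and 1463 UMIs, and deeper cells reach the cut more easily. At 300 UMIs a cell, cells with at least 2 mitotic UMIs held 59.2% of mitotic UMIs in tumor-like cells. The values were 68.4% in hormone-sensing-like, 52.9% in fibroblast-like, 59.2% in macrophage-like and 60.3% in T/NK-like cells. So no order of tumor-like, macrophage-like and T/NK-like cells is read from the cut of 10.

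Each member was then tested between classes on UMIs summed per mouse, with edgeR's quasi-likelihood test and mouse as a block, adjusted by Benjamini-Hochberg over 10899 genes. Of the 40 members 36 passed the filter of 100 UMIs in these sums. The 6 comparisons against tumor-like cells share the tumor-like sums, so they are not independent of each other.

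Against tumor-like cells, T/NK-like cells had 22 of 36 members higher and 2 lower, where 45.5% of all genes tested were called, 15.8% higher and 29.7% lower. The median log2 difference over the members was 0.94, beside -0.26 over all genes tested. By role, 12 of 13 S members tested were higher, 7 of 18 mitotic members, and 3 of 4 of those high in both phases. The mitotic count was 12 with classes from marker UMIs alone and 11 with at least 500 genes a cell, and the S count 12 and 11. Over all genes tested, 1623 of 9845 and 910 of 9561 were higher in these alternatives. Without mouse 7 or without the block the mitotic count was 5 and the S count 9. Over all genes tested, 1328 of 10899 were higher without the block. Without cells that held tumor RNA, 24 of 34 members were higher and 2 lower.

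Cenpa, the histone H3 variant of centromeres, lay between 106 and 340 CPM in T/NK-like cells (median 209, mean 213 ± 77.8, n = 7) and between 17.8 and 54.2 in tumor-like cells (median 37.2). The classes did not overlap, and the log2 difference was 2.41 (SE 0.25, adjusted p = 5.4e-14). Hmgb2, a chromatin protein of dividing cells, lay between 381 and 1274 CPM in T/NK-like and 74.5 and 291 in tumor-like cells, again with no overlap, with a log2 difference of 1.98 (SE 0.21, adjusted p = 3.1e-13). Dut, which clears dUTP from the nucleotide pool, had 115 to 221 CPM against 37.7 to 60.9, without overlap and with a log2 difference of 1.46 (SE 0.23, adjusted p = 7e-08). Top2a, whose promoter is printed above, had 109 to 387 CPM against 21.7 to 89.6 and a log2 difference of 1.49 (SE 0.25, adjusted p = 3.9e-07).

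The helicase genes moved as a group, with Mcm2 to Mcm7 all higher, by log2 differences from 0.96 for Mcm7 to 1.84 for Mcm3. Pcna, the clamp that holds DNA polymerase, was higher by 1.05 (SE 0.21, adjusted p = 1.7e-05, in 7 of 7 mice), at 298 ± 129 CPM against 130 ± 45.2. Mki67, the usual marker of dividing cells, was higher by 1.03 (SE 0.27, adjusted p = 0.00091, in 7 of 7 mice), at 105 ± 40.7 CPM against 46.7 ± 20.4. Kif11, a motor of the spindle, was higher by 1.5 and Nusap1, which bundles spindle microtubules, by 1.25. Of 27 other S genes tested, 12 were higher and 1 lower, and of 27 other G2/M genes 8 were higher and 1 lower. Among them were Atad2 (log2 difference 2.07), Lbr (1.85), Smc4 (1.63), a subunit of condensin, and Gmnn (1.61), the inhibitor of a repeat round of replication.

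Macrophage-like cells had 9 of 36 members higher and 3 lower than tumor-like cells, where 44.2% of all genes tested were called, 15.8% higher and 28.5% lower. The member median was 0.37 beside -0.32 over all genes. The higher members were 5 of 18 mitotic genes (Cenpa, Bub1, Cenpe, Mki67, Top2a), 3 of 13 S genes (Mcm3, Pcna, Tk1) and Hmgb2. Without cells that held tumor RNA 7 were higher, and Bub1 and Tk1 were no longer among them. With no filter on low counts 5 of 40 were higher (Cenpa, Cenpe, Hmgb2, Mcm3, Mki67), where 1943 of 31355 genes tested were higher. The call of Bub1 was kept in 3 of 9 alternatives, Tk1 in 9 of 17 and Top2a in 12 of 18. Each other higher member was kept in 17 or 18 of 18. Cenpa lay between 56.8 and 153 CPM, above every tumor-like value, with a log2 difference of 1.64 (SE 0.26, adjusted p = 1.3e-07). Dut, by contrast, was lower by -0.90 (SE 0.31, adjusted p = 0.013), at 18.3 ± 17.7 CPM against 50.5 ± 8.44. That call was lost without mouse 1, 3, 5 or 8 and at a clustering resolution of 1.0.

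Between the immune classes, T/NK-like cells had 11 of 36 members higher than macrophage-like cells and 1 lower, where 27.6% of all genes tested were called, 13.2% higher and 14.4% lower. Of the 11, 6 were S members (Dut, Rrm2, Mcm7, Mcm6, Mcm5, Tyms), 3 mitotic (Nusap1, Top2a, Cenpa) and 2 of both phases. Of 18 alternatives, the calls of Cenpa and Nusap1 were kept in 13 and that of Top2a in 12. With DESeq2 (7 members higher) and without the block (8) no mitotic member was called. Over all 10899 genes tested, 1222 and 977 were higher there. Dut differed most, by 2.36 (SE 0.31, adjusted p = 6.1e-10), with no overlap between the classes. Without cells that held tumor RNA 11 were higher too, with Ccne1 among them and without Mcm5. Scaled to total UMIs instead, 15 members were higher, and 62.4% of all genes called were higher in place of 47.9%.

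Hormone-sensing-like cells had 5 members higher and 1 lower than tumor-like cells, where 25.1% of all genes tested were called, 10% higher and 15.1% lower. Ccnd1 is described below with the D cyclins. Cenpf, a kinetochore protein, lay between 16.6 and 100.1 CPM (median 63.4) against 5.95 to 41.0 (median 16.5), which overlapped, with a log2 difference of 1.63 (SE 0.33, adjusted p = 4e-05, higher in 6 of 7 mice). Mcm6 lay between 8.27 and 126 CPM (median 71.2) against 16.6 to 43.3, with a log2 difference of 1.31 (SE 0.26, adjusted p = 2.1e-05). Mcm2 and Aurka, the spindle pole kinase, were higher by 0.86 and 1.26. Cks1b, a subunit that binds cyclin-dependent kinases, was lower by -0.64 (adjusted p = 0.012). Without cells that held tumor RNA, 3 members were higher (Ccnd1, Mcm6, Aurka), and Cenpf, at a log2 difference of 0.87, and Mcm2, at 0.65, were not called. Scaled to total UMIs, 7 were higher and 0 lower, and 52.7% of all genes called were higher in place of 39.9%. With classes from marker UMIs alone 15 of 34 members were higher and 0 lower, where 862 of 9845 genes tested were higher and 1361 lower. Without the block 3 of 36 were higher and 0 lower, where 739 of 10899 genes tested were higher and 1069 lower.

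Fibroblast-like cells had 0 members higher and 11 of 36 lower than tumor-like cells, where 39.6% of all genes tested were called, 14.6% higher and 25% lower. The member median was -0.89 beside -0.31. All 4 genes of both phases were lower, with 5 of 13 S genes, Cdc20 alone of 18 mitotic genes, and Ccnd1. Of the S genes, the call of Pcna was kept in 3 of 18 alternatives, Mcm6 in 6 of 18 and Mcm2 in 9 of 17. Mcm7 was kept in 16 of 18 and Rrm2 in 17 of 17. Without mouse 5, which held the barcode with 76 mitotic UMIs, 5 mitotic members were lower (Cdc20, Cenpa, Cenpf, Nusap1, Ube2c). With no filter on low counts 6 were, where 3239 of 31355 genes tested were lower. Hmgb2 lay between 26.8 and 93.8 CPM (median 65.7), lower in 7 of 7 mice, with a log2 difference of -1.39 (SE 0.29, adjusted p = 5.5e-05). Cdc20, which activates the anaphase complex, had 3 UMIs, so its ratio to tumor-like cells was 0.0964 with a counting interval of 0.0197 to 0.285. Rrm2 also had 3 UMIs, with a ratio of 0.127 (0.0260 to 0.377). Without cells that held tumor RNA, 8 members were lower, and Mcm2, Mcm7 and Pcna were not among them.

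The small classes gave few calls. Myoepithelial-like cells had 0 members higher and 3 lower (Birc5, Hmgb2, Cks1b), where 21.1% of all genes tested were called, 5.99% higher and 15.1% lower, and without cells that held tumor RNA no member was called. Birc5, the gene of survivin, had 1 UMI there and a ratio of 0.0901 (0.00227 to 0.505). Endothelial-like cells had 1 member lower, Cks1b by -1.94 (SE 0.62, adjusted p = 0.024), where 13% of all genes tested were called, 3.86% higher and 9.12% lower. Without cells that held tumor RNA Cks1b was not called there, and Dut was the 1 member lower. Scaled to total UMIs, the counts were 1 and 0, and the share of all genes called that were higher went from 28.4% to 56.7% and from 29.8% to 68.6%.

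Cks1b was the member lower in all 6 comparisons, which share the tumor-like sums. It stood at 118 ± 20.8 CPM in tumor-like cells (81.2 to 149), 93.1 ± 37.3 in hormone-sensing-like, 96.9 ± 73.7 in T/NK-like and 49.5 ± 28.3 in macrophage-like cells. Of 18 alternatives, its call was kept in 18 in macrophage-like cells, 15 in T/NK-like, 15 in fibroblast-like, 13 in hormone-sensing-like, 12 in myoepithelial-like and 9 in endothelial-like cells. It was lost in T/NK-like cells without mouse 4, with at least 500 genes a cell and with classes from marker UMIs alone. Scaling to total UMIs ended it in hormone-sensing-like, myoepithelial-like and endothelial-like cells, and leaving out cells with tumor RNA in the last of these and in myoepithelial-like cells.

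**Figure D3:**
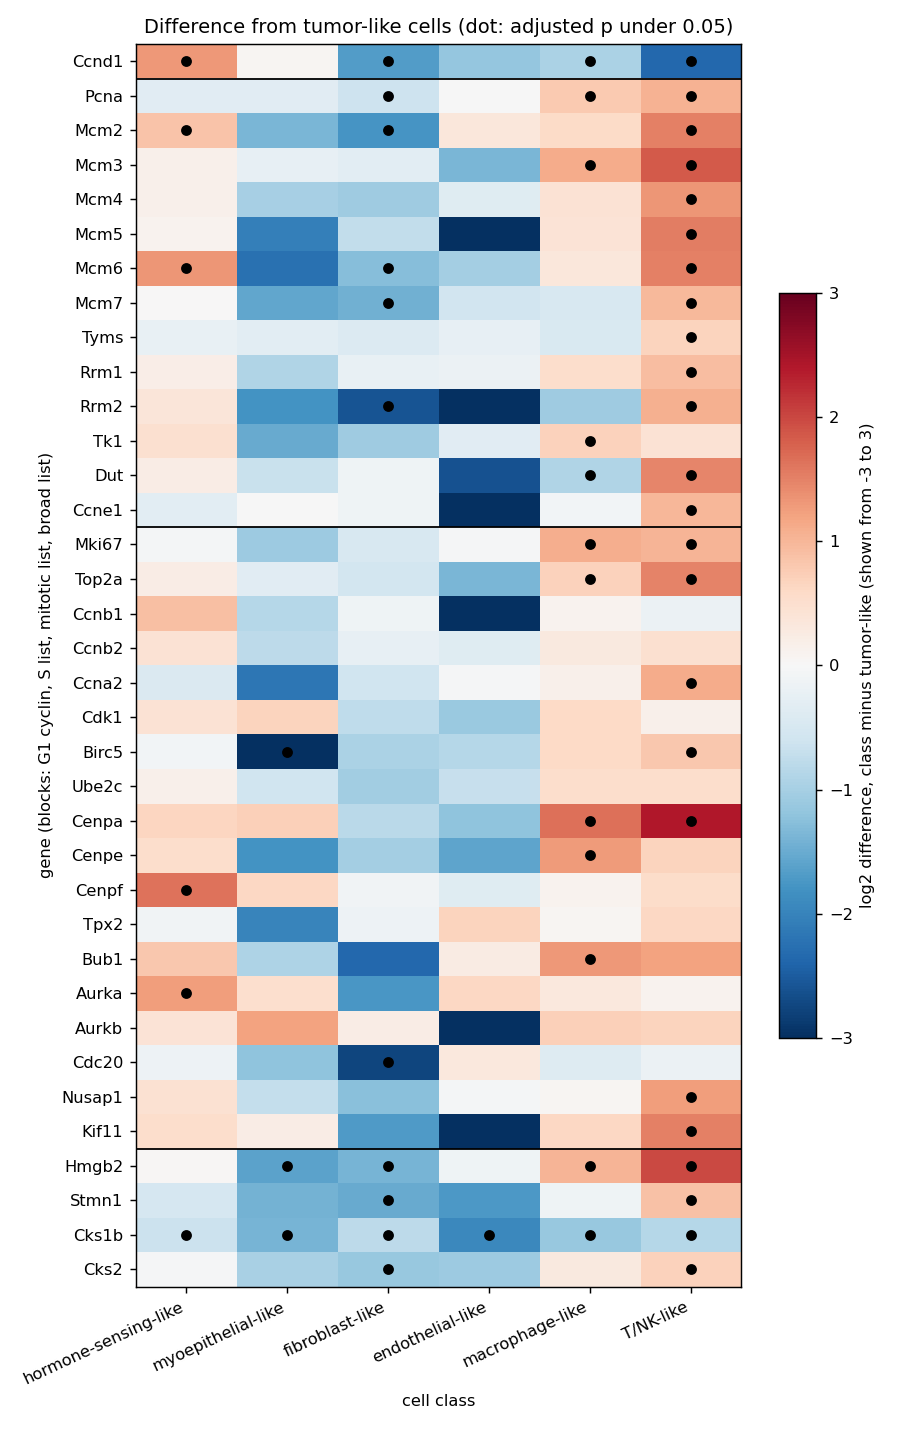
Log2 difference from tumor-like cells (colour, shown from -3 to 3) for the 36 members tested (vertical axis) in 6 classes (horizontal axis), with a dot at an adjusted p under 0.05. T/NK-like cells have 22 members higher, where 15.8% of all genes tested were higher, fibroblast-like cells have 11 lower, where 25% of all genes tested were lower, and Ccnd1 is higher in hormone-sensing-like and lower in T/NK-like cells.

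Ccnd1, the G1 member, lay between 305 and 927 CPM in hormone-sensing-like cells (median 617, mean 647 ± 202, n = 7), between 150.5 and 310 in tumor-like cells (median 230.2, mean 237 ± 50.6) and between 0 and 84.9 in T/NK-like cells (median 57.5). Hormone-sensing-like cells were higher in 7 of 7 mice, though the lowest of them was below the highest tumor-like value. The log2 difference was 1.31 (SE 0.23, adjusted p = 1.9e-06) in hormone-sensing-like cells, -1.69 (SE 0.30, adjusted p = 2.4e-06) in fibroblast-like, -0.96 (SE 0.26, adjusted p = 0.0018) in macrophage-like and -2.35 (SE 0.32, adjusted p = 1.1e-09) in T/NK-like cells. Only T/NK-like cells, of these 4 classes, did not overlap with tumor-like cells. Its gene, at chr7:144929931-144939925 on the minus strand, overlaps an exon of LTO1 on the other strand, and the strand setting of the counting is not given in the sources used here.

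Ccnd2 and Ccnd3, the other D-type cyclins, were read beside it. Ccnd2 lay between 332 and 667 CPM in T/NK-like cells (median 458) and 2.38 and 20.3 in tumor-like cells (median 11.4), with a log2 difference of 5.51 (SE 0.28, adjusted p = 2.3e-31). It was also higher in myoepithelial-like (5.06), fibroblast-like (4.91), endothelial-like (3.46) and macrophage-like cells (2.87). In hormone-sensing-like cells it was 5.51 ± 6.15 CPM and was not called. Ccnd3 was higher in T/NK-like cells by 1.32 and lower in macrophage-like cells by -1.14.

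**Figure D4:**
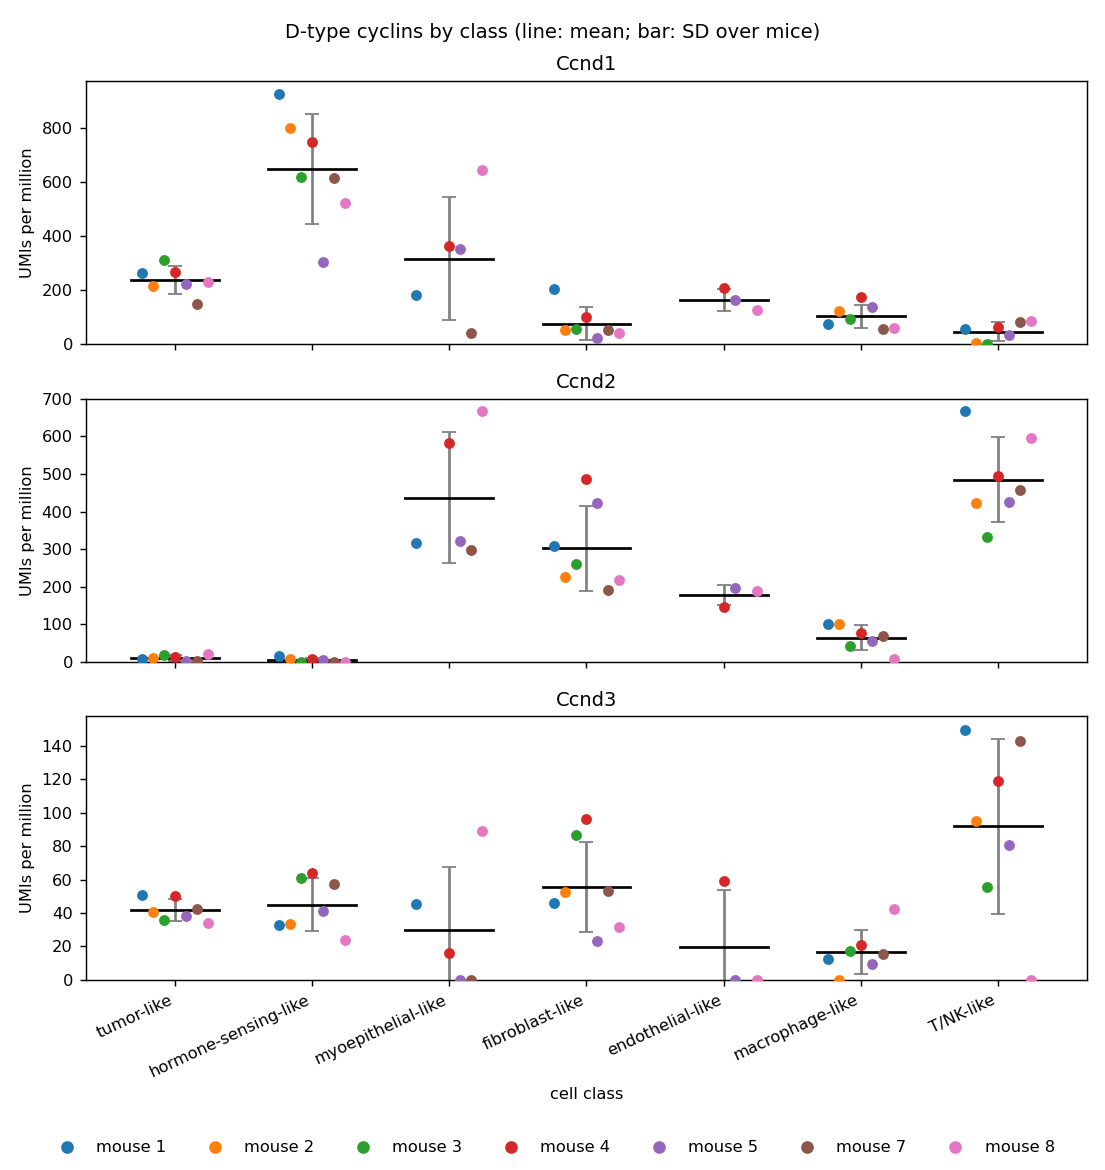
CPM of Ccnd1, Ccnd2 and Ccnd3 in 7 cell classes, 1 point per mouse. Ccnd1 is highest in hormone-sensing-like cells (305 to 927 CPM) and Ccnd2 in T/NK-like cells (332 to 667 CPM), where Ccnd1 lies between 0 and 84.9.

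Other regulators of G1 differed by class. Cdk6, a partner of D cyclins, was higher in T/NK-like (2.61) and macrophage-like cells (2.21), and Cdk4, the other partner, was lower in T/NK-like (-0.72), macrophage-like (-1.12), fibroblast-like (-0.92) and myoepithelial-like cells (-0.92). Of the inhibitors, Cdkn1a (p21) was higher in macrophage-like cells by 1.37 and in endothelial-like cells by 1.04. Cdkn1b (p27) was higher in T/NK-like cells by 0.91 and lower in fibroblast-like (-1.34) and macrophage-like cells (-0.68). Cdkn1c (p57) was higher in fibroblast-like cells by 2.54 and lower in hormone-sensing-like (-2.28), macrophage-like (-1.26) and T/NK-like cells (-1.23). Cdkn2a was lower in macrophage-like (-2.23) and T/NK-like cells (-1.42), and E2f1 higher in fibroblast-like (1.48) and macrophage-like cells (1.17). E2f1 rests on 101 UMIs over the 7 classes, near the filter of 100. Rb1, the retinoblastoma gene, was lower in T/NK-like (-2.08), fibroblast-like (-2.61), hormone-sensing-like (-1.74) and macrophage-like cells (-0.94). Its level in tumor-like cells rests on 445 UMIs, and in fibroblast-like cells on 9.

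Within the tumor-like class the members varied between clusters, which is a description with no test, since the clusters come from the same cells. The 2203 cells of the cluster led by Scgb2b27, Thrsp and Lalba had 887 ± 255 CPM of the mitotic list (489.9 to 1230, n = 7). The cluster led by Ltf and Mfge8 (2710 cells) had 210 ± 69.7, the one led by the interferon genes Ifit3 and Rsad2 (653 cells) 168 ± 150, and the one led by Saa2, Saa1 and Npy (594 cells) 78.1 ± 84.1. The first of these was thus above the range of the second in every mouse. Its median depth was lower (599 UMIs against 672.5), but its mean depth was higher in most mice. In mouse 1 its 657 cells held 1009144 UMIs, and the 405 cells of the second held 342017. At 300 UMIs a cell, a mitotic UMI was found in 226 of 1902 cells of the first (11.9%, 10.5 to 13.4) and in 3.71%, 3.23% and 2.10% of the others. The S list differed less, at 614 ± 166 CPM in the first and 347, 360 and 256 in the others. Top2a stood at 108, 23.0, 13.1 and 0 CPM in the 4 clusters, and Ccnd1 at 288, 221, 204 and 74.9.

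**Figure D5:**
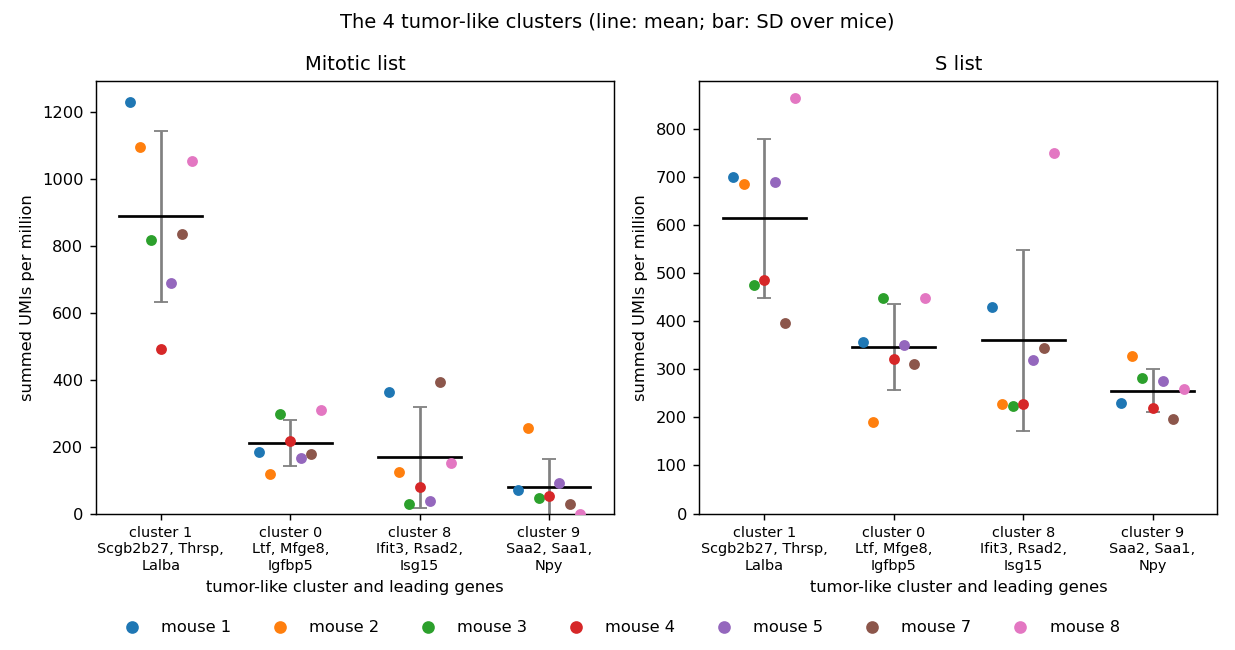
Summed CPM of the S and mitotic lists in the 4 tumor-like clusters, 1 point per mouse, each cluster named by its leading genes. The cluster led by Scgb2b27 has 887 ± 255 CPM of the mitotic list and the one led by Saa2 has 78.1 ± 84.1.

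Tumor-like cells with a mitotic UMI were last compared with those without, at 300 UMIs a cell in 6 mice, leaving out the mitotic genes, which chose the cells. Of 2763 genes tested 7.67% were called, 1.27% higher and 6.41% lower, and 2 of 4 members tested were higher. Hmgb2 was higher by 2.69 (SE 0.29, adjusted p = 1.7e-17), at 681 ± 420 CPM against 82.7 ± 26.3, with no overlap. Pcna was higher by 1.20 (SE 0.38, adjusted p = 0.025, in 6 of 6 mice), at 287 ± 121 CPM against 102 ± 35.4. Ccnd1 (0.40) and Cks1b (0.69) were not called. Thinned to 500 UMIs, Hmgb2, Ccnd1, Cks1b and Cks2 were called and Pcna was not. The call of Pcna was also lost without mouse 1, without mouse 5, with at least 500 genes a cell, with at least 2 mitotic UMIs, with no filter on low counts and without the block. The summed S list was 824 to 2090 CPM (mean 1416 ± 515) against 173 to 399 (mean 300.3 ± 79.1), without overlap. Over all 7 mice, 64.9% of the cells with a mitotic UMI were in the cluster led by Scgb2b27, which has the highest S list, against 32.4% of those without, and the part of the clusters in these differences was not tested. Of other G2/M genes Smc4 (1.85), Rangap1 (1.73) and Anp32e (1.32) were higher. With all UMIs of the same cells, an alternative added after seeing the data, 17 of 17 members tested were higher, 12 of them S members. Of 7906 genes 11.1% were called, 401 higher and 475 lower. Ccnd1 was then higher by 0.84 (adjusted p = 5.3e-05). The filter on low counts sums UMIs over both kinds of cells, so a member with few UMIs passes it more easily when it is higher. Mcm5, for example, had a mean of 9.67 CPM in cells without a mitotic UMI and 56.5 in those with one. The count of 17 is thus partly set by the filter. Scaled to total UMIs, 50.6% of all genes called were higher in place of 16.5%.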

How the data were processed

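Single cells of 7 mammary tumors were measured by Drop-seq, 1 library a mouse. Per the labels and methods, the authors used STAR and FastQC and deposited UMI counts per gene and barcode. The labels name hg19, the methods a mouse genome. Here barcodes with 200 to 6000 genes were kept and normalised to 10000 UMIs. They were clustered in Seurat 5.3.0 (20 components, 30 neighbors, resolution 0.6) without the listed cell cycle genes, and the clusters were named from fixed markers. No doublet caller was run, and cells with tumor RNA were left out as an alternative. UMIs were summed per mouse and class with at least 10 cells and tested with edgeR 4.0.16 (R 4.3.3), with Benjamini-Hochberg adjustment, a threshold of 0.05 and genes of at least 100 UMIs, a filter chosen after seeing the data. Classes of 1 mouse come from the same animal, so mouse was a block. DESeq2 1.42.0 was an alternative. Shares have 95% exact intervals from scipy 1.17.1. Tests were also tried on simulated counts. Members and lists were chosen with earlier results of these data known. Named genes are the members, G1 regulators with at least 100 UMIs, and the 5 pathway genes with the smallest adjusted p in a comparison. Own markers summed to 3182 to 5250 CPM in hormone-sensing-like, 1188 to 10148 in myoepithelial-like, 44430 to 58413 in fibroblast-like, 5965 to 7010.0 in endothelial-like, 24109 to 29332 in macrophage-like and 3483 to 12163 in T/NK-like cells. In tumor-like cells pericyte markers summed to 3.9 to 40.6 CPM and neutrophil markers to 142 to 521, while pericyte markers summed to 879 to 2948 in endothelial-like cells and monocyte/dendritic markers to 39187 to 63064 in macrophage-like cells, above their own. Gene positions are from GENCODE vM21. Exons of 11 members overlap another gene, 9 on the other strand, and 4 (Ccnb1, Ccnb2, Pcna, Tyms) have a named pseudogene, so their counts are less certain.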

Additional observations from a re-analysis of the deposited data

Results flagged for a closer look

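In 14 of 90 groups of mice the highest or lowest mouse stood far from the rest by Dixon's test. For independent groups of normal values chance gives about 1 in 20. These groups share cells and genes, and some rest on few UMIs, so the 14 are not read as an excess. In fibroblast-like cells mouse 5 was highest for the mitotic list (1114 CPM, next 298), Cenpa (82.1 CPM, next 28.98), Mki67 (129 CPM, next 34.3) and Ube2c (141 CPM, next 22.9), which includes the single barcode with 76 mitotic UMIs. Mouse 3 was lowest there for the S list (58.0 CPM, next 240.4), and mouse 1 highest for Ccnd1 (206 CPM, next 102). Mouse 1 had the highest ratio of S to mitotic UMIs in hormone-sensing-like cells (1.84, next 1.04) and in myoepithelial-like cells (2.25, next 0.79, n = 4). In macrophage-like cells mouse 2 was highest for Hmgb2 (511 CPM, next 275) and Top2a (170.3 CPM, next 85.4), and mouse 3 for the share of cells with a mitotic UMI (13.3%, next 9.28%). Hmgb2 was 225 CPM in myoepithelial-like cells of mouse 5 (next 66.7), Pcna 214 CPM in hormone-sensing-like cells of mouse 8 (next 128), and Cks1b 255 CPM in T/NK-like cells of mouse 8 (next 111).

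The mitotic list was also found outside the 7 classes. It was 828 ± 323 CPM in monocyte/dendritic-like cells (n = 7), 438 ± 296 in B-like cells (n = 4), 421 ± 199 in erythroid-like cells (n = 4), of which 88.1% held tumor RNA, and 439 CPM in barcodes under 200 genes, which were not kept as cells (n = 7). The B-like and erythroid-like means were not above that of these barcodes. Leading genes of the erythroid-like cluster (427 cells) were hemoglobin genes and then PYMT, Plet1 and Trf. With 30 components the erythroid-like cluster had 88 cells, and tumor-like cells of mouse 8 were 248 in place of 130. So the erythroid-like cells are not read as a compartment apart from the tumor-like class.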

How the results depend on the processing

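Under the alternatives no member called against tumor-like cells, or between the immune classes, reversed its direction, and of 1247 values of single called members 167 lost the call. Of 141 counts of members 114 stayed within 1.5 times, of 141 counts over all genes 118, and of 475 list values 451 moved by less than 1 SD. The list values include means without 1 mouse at a time, which cannot move by 1 SD. So the 451 is not read as a measure of stability. Alternatives added after seeing the data were edgeR's own filter, scaling to total UMIs, all UMIs of the same cells, and leaving out the highest cell.

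Shares of cells in this section are means over mice, where those of the classes above are pooled over cells. At 300 UMIs the means for the mitotic share were 8.55% in hormone-sensing-like, 5.65% in myoepithelial-like, 2.69% in fibroblast-like, 9.80% in endothelial-like and 9.11% in macrophage-like cells, and for the S share 9.5% in tumor-like, 11% in hormone-sensing-like and 10.7% in macrophage-like cells.

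Without the replicate block (mouse pairing) genes called were 1808 in hormone-sensing-like cells and 17 between tumor-like cells with and without a mitotic UMI, and members called 3 and 1. Naming each cell by its markers gave 15 members in hormone-sensing-like (2223 of 9845 genes called), 5 in fibroblast-like (3414) and 0 in endothelial-like cells (1186). It gave 1076 genes in myoepithelial-like cells and mitotic CPM of 299 in tumor-like cells. In hormone-sensing-like cells it gave S CPM of 687 and a mitotic share of 13.1%. Ratios were 2.05 in tumor-like and 2.94 in myoepithelial-like cells. Without cells with tumor RNA, myoepithelial-like cells gave 0 members, 793 genes, mitotic CPM of 899, S CPM of 685 and a mitotic share of 15.6%, and hormone-sensing-like cells S CPM of 694 and a ratio of 2.22. With no filter members called were 5 in myoepithelial-like (2818 of 31355 genes), 17 in fibroblast-like (5254) and 2 in endothelial-like cells (1613). For cells with a mitotic UMI 6 were called (697 of 20409 genes). edgeR's filter gave 6 members in fibroblast-like (3020 of 6189 genes) and 0 in endothelial-like cells (1188), 3084 genes in macrophage-like and 3252 in T/NK-like cells. Scaling to total UMIs gave 1 member in myoepithelial-like cells, and 0 members and 886 genes in endothelial-like cells. DESeq2 gave 0 members in endothelial-like cells and 90 genes for cells with a mitotic UMI.

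Cells with at least 500 genes gave 0 members in endothelial-like cells, 2924 genes in T/NK-like cells, 1709 between the immune classes, 112 genes and 1 member for cells with a mitotic UMI, 1800 mitotic CPM and 1572 S CPM in T/NK-like cells, ratios of 2.75 in myoepithelial-like and 2.48 in endothelial-like cells, and mitotic shares of 4.15% in fibroblast-like and 13.6% in macrophage-like cells. Thinning to 500 UMIs gave mitotic shares of 3.99% and 14.8% in these, S shares of 15.9% in tumor-like, 19.2% in hormone-sensing-like and 17.3% in macrophage-like cells, and 4 members for cells with a mitotic UMI. At least 2 mitotic UMIs gave 1 member there, and all UMIs 876 genes and 17 members, a count partly set by the filter as said above. Without the highest cell of each mouse, mitotic CPM was 167 in endothelial-like, 114 in fibroblast-like, 199 in myoepithelial-like and 450.1 in hormone-sensing-like cells, in each case lower than with it by a factor of over 1.5. In endothelial-like cells of the CB titles alone, which is 1 mouse, S CPM was 296 and the mitotic share 2.08%.

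Leaving out 1 mouse at a time gave 0 to 3 members and 1048 to 1833 genes in myoepithelial-like, 6 to 12 members in fibroblast-like, 0 to 1 member and 515 to 1196 genes in endothelial-like cells, and 1 to 2 members and 103 to 163 genes for cells with a mitotic UMI. In hormone-sensing-like cells it gave 1803 (without mouse 4) to 2626 genes. The causes were not tested. The endothelial-like and myoepithelial-like classes rest on 45 and 113 mitotic UMIs.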
